A study of Mus musculus with 32 samples.

Results

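NuRD is a nucleosome remodelling and histone deacetylase complex, in which a Chd ATPase that moves nucleosomes is joined to the deacetylases Hdac1 and Hdac2. Mta proteins form the scaffold that holds the deacetylases, Mbd2 or Mbd3 links the deacetylase and remodelling parts, Gatad2 proteins connect Mbd to Chd, and the WD-repeat proteins Rbbp4 and Rbbp7 bind histones. The complex removes acetyl groups from histones at promoters and enhancers, and it is known for its part in the early differentiation of the mouse embryo. The genes described here are the subunits other than the deacetylases, taken by symbol, namely Mta1, Mta2, Mta3, Chd3, Chd4, Mbd2, Mbd3, Gatad2a, Gatad2b and Rbbp4, which are 10 of the 55385 genes in the RNA tables, and all 10 passed the filter on low counts in every comparison.

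The study asked what histone acetylation after fertilisation, and its later removal, do for the onset of transcription in the mouse embryo. Wild-type embryos were made by in vitro fertilisation with oocytes and sperm of B6D2F1/J mice aged 6 to 8 weeks and were grown in KSOM medium. A-485, which blocks the acetyltransferases CBP and p300, was given at 10 µM between 4 and 20 hours post in vitro fertilisation (hpi) and washed out, and its vehicle DMSO served as control; zygotes, early 2-cell embryos and late 2-cell embryos were sequenced from both arms. TSA (trichostatin A), which blocks histone deacetylases including those of NuRD, was given at 50 nM from 8 to 28 hpi, and late 2-cell embryos were sequenced with DMSO controls of their own. The total RNA-seq of these 8 groups held 2 libraries a group, 16 in all. Both inhibitors act on all cells of the embryo and on more than 1 enzyme, and the A-485 late 2-cell embryos had spent the time after 20 hpi without the drug. Since zygotes are the earlier stage, time since the start of A-485 also differed between stages, and the 2 cannot be told apart.

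The libraries held between 13206163 and 32585987 expected counts. The summed level of 8 markers of the 2-cell stage was 482 to 536 FPKM in early 2-cell DMSO libraries against 30.9 to 33.6 after A-485, 348 to 361 against 83.5 to 95.4 in late 2-cell embryos, and 207 to 251 in the DMSO libraries against 565 to 596 after TSA. The sum of 9 oocyte markers was 738 to 791 FPKM in late 2-cell DMSO libraries against 1414 to 1419 after A-485, and 570 to 589 in the DMSO libraries against 734 to 760 after TSA. Bmp15 and Oosp1 made up most of it. Zp3 went the other way after A-485 (12.2 and 10.25 against 15.5 and 20.4) and after TSA (7.93 and 7.62 against 13.9 and 11.8), as did Mos after TSA. Of the 2-cell markers, Duxf3 was higher after A-485 in late 2-cell embryos (6.04 and 9.56 against 3.22 and 4.29). Transcripts of the 13 mitochondrial protein-coding genes took 5.43% and 5.35% of counts after A-485 in late 2-cell embryos against 2.45% and 2.35% in their controls, and 3.66% and 3.72% after TSA against 2.71% and 2.39%. Scaling on the mitochondrial transcripts is given where it changes a result; the part of the marker differences in the results below was not tested.

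The plot of FPKM by library shows all 10 subunits in the 16 libraries. FPKM, which corrects fragment counts for transcript length and library depth, is a level that can be compared between genes. Fold changes and tests below come from the expected counts, scaled between libraries by TMM (trimmed mean of M values), and a gene is said to be called where its adjusted p was under 0.05, its fold change at least 2 and its mean FPKM at least 1 in either group. Rose and fell are written of an adjusted p under 0.05 at any fold. The shares of genes called are of all genes tested, among them genes below that FPKM, which cannot be called. For late 2-cell A-485 against DMSO, 16062 of 22822 tested genes reached it, as did all 10 subunits. Shares among such genes alone would be larger.

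**Figure D1:**
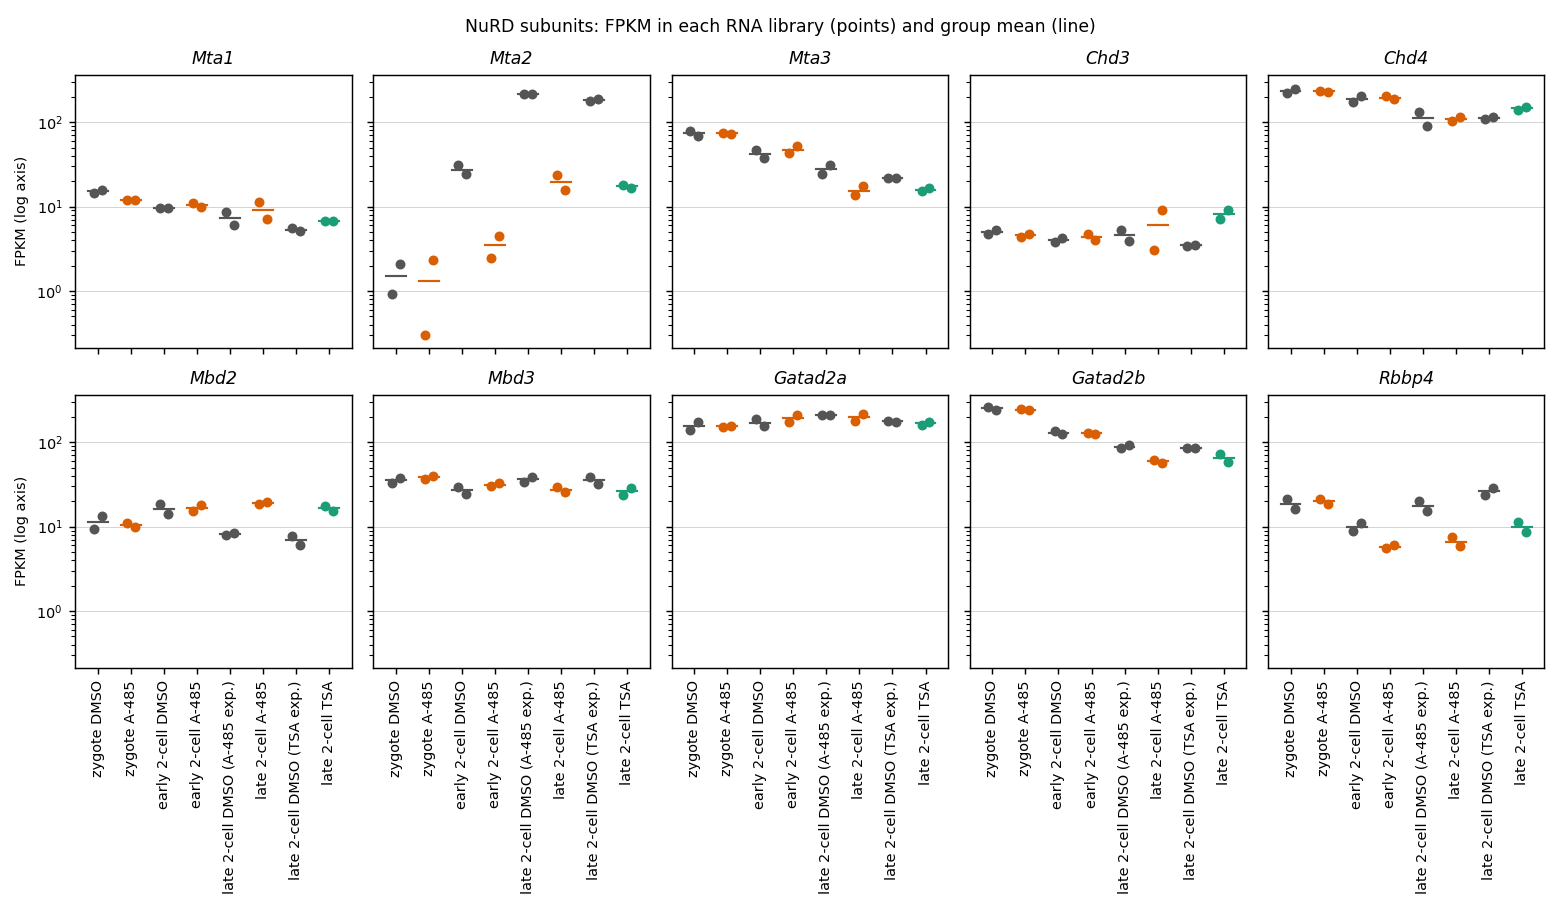
FPKM (log axis) of each NuRD subunit in the 16 RNA libraries, 1 panel a gene; points are libraries (grey DMSO, orange A-485, green TSA) and lines are means of the 2 libraries. Mta2 spans 0.30 to 215 FPKM, whereas Gatad2a stays between 138 and 217.

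Mta2, a scaffold subunit, had the largest log2 fold changes of the 10 in both stage comparisons of DMSO embryos and in the 2-cell comparisons with treatment, but not in zygotes. In DMSO embryos its level was 0.93 and 2.07 FPKM in zygotes, 30.9 and 24.1 in early 2-cell embryos, and 213 and 215 in late 2-cell embryos of the A-485 experiment, with 177 and 189 in those of the TSA experiment. The libraries of the 3 stages did not overlap. Mta2 was the lowest of the 10 subunits in zygotes, the fifth in early 2-cell DMSO embryos, where its libraries overlapped those of Mbd3, and the highest in both late 2-cell DMSO groups, where in the TSA experiment they overlapped those of Gatad2a. TPM orders the genes of a library as FPKM does, so it gave no separate check on these positions.

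The sequences upstream of Mta2 and Rbbp4, the genes called in both late 2-cell treatment comparisons, and of Mta1, the Mta paralogue that was not called in any pair of groups, are shown for comparison with the ATAC-seq peak lists described further on, in which Mta2 and Rbbp4 have a peak at the start and Mta1 has none. Each run is the 250 bases before the RefSeq start (RefSeq promoter table, GRCm38.p6; 7 of the 10 subunits are in it), 5′ to 3′ on the strand of the gene, with capitals where 1 of 7 searched motifs matched on either strand. Mta2 is at chr19:8941670-8941919 on the plus strand, Rbbp4 at chr4:129335371-129335620 on the minus strand and Mta1 at chr12:113098028-113098277 on the plus strand.
Mta2: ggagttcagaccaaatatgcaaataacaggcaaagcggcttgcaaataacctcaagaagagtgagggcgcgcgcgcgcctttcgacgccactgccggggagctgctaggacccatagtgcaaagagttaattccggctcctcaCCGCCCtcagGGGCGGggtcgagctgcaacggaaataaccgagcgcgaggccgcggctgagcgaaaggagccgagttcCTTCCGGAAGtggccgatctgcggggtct
Rbbp4: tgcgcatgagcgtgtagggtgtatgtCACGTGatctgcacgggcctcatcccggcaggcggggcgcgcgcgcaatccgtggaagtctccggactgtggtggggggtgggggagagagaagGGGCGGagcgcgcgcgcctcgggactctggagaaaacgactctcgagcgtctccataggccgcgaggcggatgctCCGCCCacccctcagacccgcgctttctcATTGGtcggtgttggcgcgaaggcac
Mta1: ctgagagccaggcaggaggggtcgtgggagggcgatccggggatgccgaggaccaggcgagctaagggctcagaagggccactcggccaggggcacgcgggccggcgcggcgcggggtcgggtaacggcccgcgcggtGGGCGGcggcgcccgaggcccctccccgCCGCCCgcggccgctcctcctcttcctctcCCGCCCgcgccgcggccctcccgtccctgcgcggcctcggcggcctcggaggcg

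The 7 motifs were searched on both strands of windows from 250 bases before to 50 after the start, and of the 32851 promoters listed by RefSeq 37.4% held CCAAT, 13.6% held TATAAA, 35.7% held GGGCGG, 7.06% held GGATTA, 1.56% held CAAGGTCA, 8.86% held CCGGAAG and 7.15% held CACGTG. The Mta2 run held GGGCGG on both strands and 2 matches of CCGGAAG that overlap each other, 1 on each strand, within 30 bases of the start. The Rbbp4 run held CACGTG, with GGGCGG on both strands and CCAAT on the opposite strand. The Mta1 run held 3 matches of GGGCGG and none of the other 6 motifs, and its 80.8% G and C compares with 67.6% for Rbbp4 and 60.4% for Mta2. GGGCGG was in every promoter listed for the 7 subunits.

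In DMSO embryos, Mta2 was 27.7-fold higher in early 2-cell embryos than in zygotes (log2 fold change 4.79 ± 0.23 SE, adjusted p = 2.28e-09, edgeR's quasi-likelihood test with Benjamini-Hochberg adjustment), and Mta2 was the only subunit called, beside 11.2% of all tested genes called higher and 14.9% called lower. With mitochondrial scaling its log2 fold change was 3.45, and 7 subunits were called lower, beside 8196 of 20106 genes called lower and 1270 called higher. Under 2-fold, Rbbp4 fell by 0.92 on the log2 scale, Mta3 by 0.74, Gatad2b by 0.73 and Mta1 by 0.56. Mbd2 rose by 0.66 and Gatad2a by 0.43 with TMM scaling, but scaling on mitochondrial transcripts instead turned their log2 fold changes to -0.68 and -0.91. Rbbp4 was at 21.1 and 16.1 FPKM in zygotes and 8.97 and 10.96 in early 2-cell embryos, with no overlap. The remaining subunits, Chd3, Chd4 and Mbd3, did not pass the test (log2 fold changes from -0.39 to -0.08). Over the 10 subunits the median log2 fold change was -0.33, against 0.08 over all genes tested and -0.12 over those with an FPKM of at least 1.

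From early to late 2-cell in DMSO embryos, Mta2 rose a further 8.17-fold (log2 fold change 3.03 ± 0.17, adjusted p = 9.57e-08) and Mbd2 fell 2.03-fold (log2 fold change -1.02 ± 0.24, adjusted p = 0.00465), beside 15.9% of genes called higher and 8.92% called lower. Mbd2, a reader of methylated DNA, went from 18.4 and 14.3 FPKM to 8.04 and 8.34, without overlap. Its call rested on single libraries, since leaving out early 2-cell DMSO replicate 1 or late 2-cell DMSO replicate 1 left it just under 2-fold, at -0.90 in both cases. Rbbp4 came back up, rising 0.96 on the log2 scale to 20.0 and 15.4 FPKM, while Chd4 fell by 0.79, Mta3 by 0.74 and Gatad2b by 0.63. Mta1, Chd3, Mbd3 and Gatad2a lay between -0.39 and 0.34 and did not pass. The subunits' median was -0.13, against -0.02 over all genes and 0.03 over those with an FPKM of at least 1.

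The other subunits held narrower ranges over the stages. Chd4, the main ATPase of the complex, was at 221.4 and 249.4 FPKM in DMSO zygotes, 172 and 203 in early 2-cell embryos, and 130 and 91.3 in late 2-cell embryos. Gatad2a, which bridges Mbd and Chd, was at 138 and 174, then 187 and 154, then 211 and 211 FPKM. Gatad2b, its paralogue, was at 262 and 242, then 134 and 126, then 86.0 and 91.6 FPKM. The pair therefore changed places: Gatad2a made up 38.2% ± 5.12 (SD, n = 2) of their summed FPKM in zygotes and 70.3% ± 0.92 in late 2-cell embryos. Mta3 was at 79.1 and 68.2 FPKM in zygotes, 46.4 and 37.7 in early 2-cell embryos, and 24.2 and 31.3 in late 2-cell embryos. Chd3, the ATPase related to Chd4, stayed between 3.42 and 5.26 FPKM in all DMSO libraries, and Chd4 supplied at least 94.7% of the mean Chd3 and Chd4 level in every group. Summed over the 10 subunits, DMSO libraries held 784 and 824 FPKM in zygotes, 641 and 608 in early 2-cell embryos, and 740 and 713 in late 2-cell embryos. Of these sums Mta2 held a mean of 1.5, 27.5 and 214 FPKM in the same order. FPKM and TPM ordered the stages differently for Gatad2a. Its mean TPM was 194 in DMSO zygotes, 133 in early 2-cell embryos and 155 in late 2-cell embryos of the A-485 experiment. The size of the differences between stages in the summed level also depends on this choice of unit.

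The late 2-cell DMSO libraries of both experiments served as a check on how far untreated groups differ. No subunit was called between them by edgeR or by DESeq2, beside 0.136% of genes called lower and 1.19% called higher in the TSA experiment. At an unadjusted p under 0.05, edgeR gave 1 subunit, Gatad2a, beside 2777 of 20647 genes, and the 10 log2 fold changes lay between -0.44 and 0.08. Mta2 differed by 0.01 on the log2 scale (95% interval -0.18 to 0.20).

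**Figure D2:**
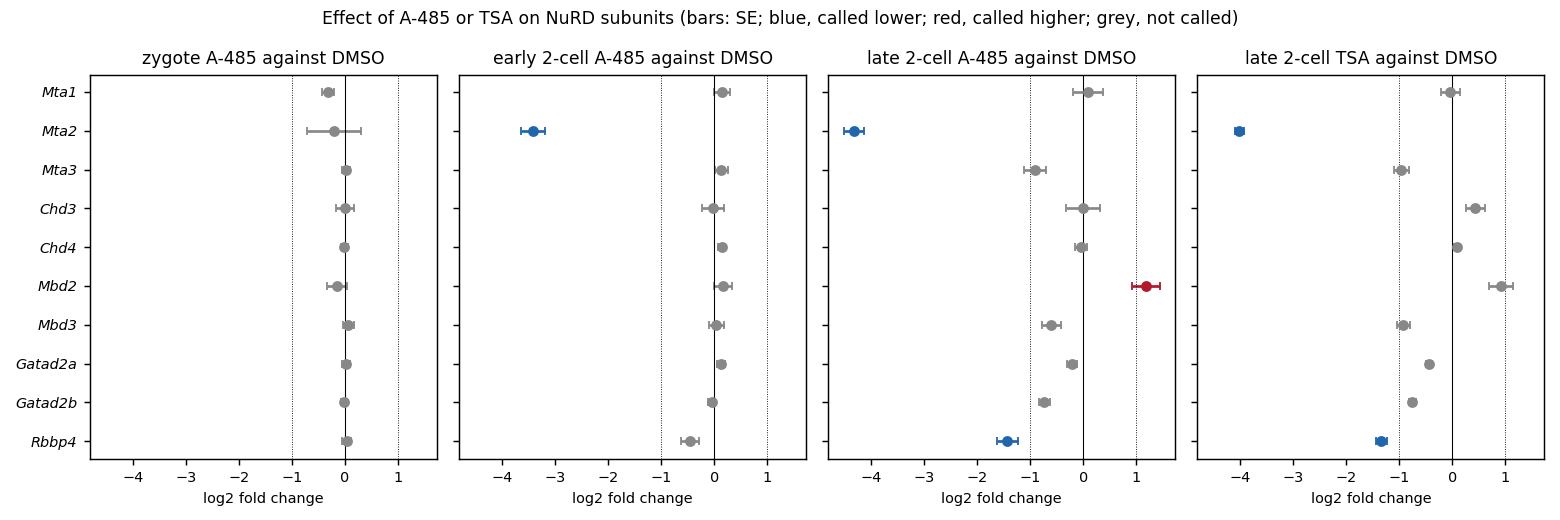
Log2 fold change (x axis, count-based, bars are SE) of each NuRD subunit in the 4 comparisons of treated and DMSO embryos; dotted lines mark 2-fold, blue was called lower, red called higher, grey not called. Nothing was called in zygotes, Mta2 alone in early 2-cell embryos, and Mta2 and Rbbp4 in both late 2-cell comparisons, with Mbd2 called higher after A-485.

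In zygotes, A-485 left the subunits without a call by edgeR or DESeq2, beside 0.0657% of genes called lower and 0.00548% called higher. At an unadjusted p under 0.05, 1 subunit was counted, beside 1073 of 18258 genes. It was Mta1, at 12.1 and 12.1 FPKM against 14.5 and 15.9, without overlap, but its adjusted p was 0.83. Mta2 was at 0.30 and 2.30 FPKM against 0.93 and 2.07, from 25 to 79 counts a library, and the 95% interval of its log2 fold change ran from -1.32 to 0.89. The intervals of the other 9 subunits lay within -0.57 and 0.35.

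In early 2-cell embryos, Mta2 was 10.7-fold lower after A-485 and no other subunit passed the test. Mta2 was at 2.48 and 4.51 FPKM after A-485 against 30.9 and 24.1 with DMSO, both treated libraries below both controls (log2 fold change -3.41 ± 0.23, adjusted p = 5.85e-07). It was 1 of 10 subunits called lower, beside 7.90% of genes called lower and 0.402% called higher. Since each library is bulk RNA from embryos, fewer cells carrying a transcript and less of it per cell cannot be told apart. Rbbp4 came nearest among the others, with 5.60 and 5.99 FPKM against 8.97 and 10.96, and missed the adjusted threshold (adjusted p = 0.11). At an unadjusted p under 0.05, 3 subunits were counted, beside 4873 of 20872 genes, and the 9 not called lay between -0.45 and 0.16 on the log2 scale. Their median with Mta2 was 0.08, against 0.00 over all genes.

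In late 2-cell embryos that had been exposed to A-485, Mta2 was 20.0-fold lower, Rbbp4 2.696-fold lower and Mbd2 2.27-fold higher. Mta2 was at 23.4 and 15.6 FPKM against 213 and 215 (log2 fold change -4.33 ± 0.19, adjusted p = 1.16e-08). Rbbp4, a histone chaperone also found in other chromatin complexes, was at 7.45 and 5.82 FPKM against 20.0 and 15.4 (-1.43 ± 0.19, adjusted p = 9.28e-05). For each of these genes both treated libraries lay below both controls. Mbd2 was at 18.8 and 19.4 FPKM against 8.04 and 8.34 (1.18 ± 0.26, adjusted p = 0.00353), without overlap, and scaling on mitochondrial transcripts, which took a larger share of counts in the treated libraries, left 0.20 (adjusted p = 0.62). The 2 subunits called lower and 1 called higher stand beside 16.8% and 10.5% of all genes, but with mitochondrial scaling 7 were called lower and 0 higher, beside 6874 and 1177 of 22822 genes, and with adjusted p alone 5 were lower, beside 4664. Mitochondrial scaling put Mta2 at -5.31 and Rbbp4 at -2.41. Below 2-fold, Mta3 fell by 0.91 on the log2 scale, Gatad2b by 0.73 and Mbd3 by 0.60. Mta1, Chd3, Chd4 and Gatad2a did not pass, with log2 fold changes from -0.21 to 0.09. The 2 Chd3 libraries after A-485 stood apart, at 3.07 and 9.14 FPKM, and the 95% interval of its log2 fold change ran from -0.70 to 0.69. The median over the 10 subunits was -0.40, against 0.28 over all genes tested and 0.02 over those with an FPKM of at least 1.

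After TSA, Mta2 and Rbbp4 were again the subunits called lower in late 2-cell embryos. Mta2 was at 18.1 and 16.7 FPKM against 177 and 189 in the DMSO libraries, 16.2-fold lower (log2 fold change -4.02 ± 0.08, adjusted p = 1.11e-09). Rbbp4 was at 11.3 and 8.75 FPKM against 23.6 and 28.9, 2.53-fold lower (-1.34 ± 0.11, adjusted p = 2.15e-06), and with libraries scaled to total counts it was just under 2-fold, at -0.98. In both genes the treated and control libraries did not overlap. The 2 subunits called lower and 0 called higher (also 0 by DESeq2) stand beside 13.9% and 13.8% of all genes, and at an unadjusted p under 0.05, 8 of the 10 were counted, beside 11803 of 23429 genes. Below 2-fold, Mta3 fell by 0.96 on the log2 scale, Mbd3 by 0.93, Gatad2b by 0.75 and Gatad2a by 0.44, and Mbd2 rose by 0.92.

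Mbd2 was at 17.6 and 15.3 FPKM after TSA against 7.79 and 6.07, and Mbd3, the methylation-insensitive alternative to Mbd2 in the complex, at 23.5 and 28.9 against 38.7 and 32.4. The Mbd2 part of their summed FPKM was therefore 38.7% ± 5.81 after TSA against 16.3% ± 0.68, and 41.1% ± 3.12 after A-485 against 18.4% ± 0.97, with no overlap in either experiment. Gatad2a, by contrast, was at 161 and 173 FPKM against 180 and 173, and these libraries overlapped although its count-based test passed. Mta1 was at 6.69 and 6.79 FPKM after TSA against 5.56 and 5.14, while its count-based log2 fold change was -0.04; FPKM is not corrected for the makeup of a library as TMM is. Chd3 and Chd4 did not pass (0.43 and 0.09). The median over the 10 subunits was -0.60, against 0.13 over all genes tested and -0.03 over those with an FPKM of at least 1.

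Markers of other cell types differed with these treatments. The summed level of 7 fibroblast markers was 14.3 to 16.7 FPKM after A-485 in late 2-cell embryos against 0.13 to 0.64, almost all of it Pdgfra (13.9 and 15.9), while Lum and Dcn were at 0 and Col1a2 at 0 in those libraries. After TSA it was 9.70 to 10.8 against 1.09 to 1.98, and the sum of 6 erythroid markers was 44.6 to 46.8 against 0.78 to 1.36, most of it Hba-a2, with Hbb-bs and Hbb-bt at 0. The sum of 8 cumulus cell markers in late 2-cell embryos was 3.20 to 3.38 after A-485 against 7.89 to 12.4. It was 3.62 to 4.94 after TSA against 12.2 to 14.1. Most of each control sum was Amhr2, at 0.65 and 0.04 FPKM after A-485 against 6.95 and 10.67. Has2, Ptx3 and Inha went the other way in both experiments, whereas Tnfaip6 was also lower after TSA. Has2 was at 1.13 and 1.03 FPKM after A-485 against 0.17 and 0.19. The cumulus sum was not above 14.1 in any group, and that of 6 sperm markers not above 18.9. Their part in the subunits' values was not tested.

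Whether the A-485 effect differed between stages was tested as an interaction, with adjusted p under 0.05 as the only criterion. Between zygote and early 2-cell, Mta2 alone differed, its log2 effect being lower by 3.14 ± 0.48 SE in early 2-cell embryos (adjusted p = 1.74e-04; -2.06 without zygote A-485 replicate 2 and -3.73 without replicate 1), beside 4.65% of genes lower and 1.00% higher. Between early and late 2-cell, 4 subunits were lower and 1 was higher, beside 9.90% and 10.1% of genes. The effect in late 2-cell embryos was lower by 0.96 for Mta3, 0.90 for Rbbp4, 0.83 for Mta2 and 0.61 for Gatad2b, and with mitochondrial scaling by 2.02, 1.96, 1.91 and 1.66. The Mta2 difference was not past the threshold without early 2-cell A-485 replicate 2 (-0.64, adjusted p = 0.18), early 2-cell DMSO replicate 2 (-0.59, 0.14) or late 2-cell A-485 replicate 2 (-0.61, 0.087), and that of Rbbp4 was not without early 2-cell DMSO replicate 2 (-0.72, 0.10). For Mbd2 the effect was higher by 1.10 in late 2-cell embryos, and 0.04 with mitochondrial scaling. Its call was also lost on leaving out any of early 2-cell A-485 replicate 1 (1.02) or 2 (1.10), early 2-cell DMSO replicate 1 (0.79) and late 2-cell DMSO replicate 1 (0.79) or 2 (0.98).

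The TSA and A-485 effects in late 2-cell embryos were compared in the same way, although the drugs were given at different times and doses. No subunit differed by edgeR or DESeq2, beside 4.59% of genes lower and 12.7% higher for TSA. With mitochondrial scaling, by contrast, 6 subunits were higher for TSA, beside 6639 of 26554 genes higher and 412 lower. With TMM scaling and an unadjusted p under 0.05 there was 1 subunit, beside 7492 of 26554 genes. It was Mta2, with a difference of 0.42 (95% interval 0.01 to 0.83, adjusted p = 0.17). The intervals of Chd3 (-0.23 to 1.33), Mbd2 (-0.87 to 0.57) and Mta1 (-0.76 to 0.73) were wide enough to hold sizeable differences, whereas that of Gatad2a was -0.37 to 0.11 and that of Gatad2b -0.17 to 0.36.

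Embryos exposed to A-485 were followed from early to late 2-cell, across the removal of the drug. Mta2 rose 4.13-fold (log2 fold change 2.05 ± 0.29, adjusted p = 9.59e-06), from 2.48 and 4.51 to 23.4 and 15.6 FPKM, and so remained below the 30.9 and 24.1 FPKM of early 2-cell DMSO embryos. With mitochondrial scaling its log2 fold change was 1.13. Mta3 fell by 1.86, Gatad2b by 1.40 and Chd4 by 1.05, beside 12.8% of genes called higher and 7.15% called lower, and mitochondrial scaling put these 3 at -2.77, -2.30 and -1.95. Chd4 was under 2-fold with total-count scaling (-0.76) and with all 16 libraries in one fit (-0.998). Gatad2a, at 175 and 209 and then 180 and 217 FPKM, had a log2 fold change of -0.26 with TMM (adjusted p = 0.021) and of 0.03 with total-count scaling. These comparisons share libraries with those of treated against DMSO embryos and do not stand apart from them. For Chd4 the values over late 2-cell embryos were 103 and 116 FPKM after A-485 against 130 and 91.3 with DMSO, and 140 and 151 after TSA against 109 and 116. For Gatad2b they were 62.1 and 57.0 after A-485 against 86.0 and 91.6, and 71.7 and 57.9 after TSA against 86.6 and 85.2.

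**Figure D3:**
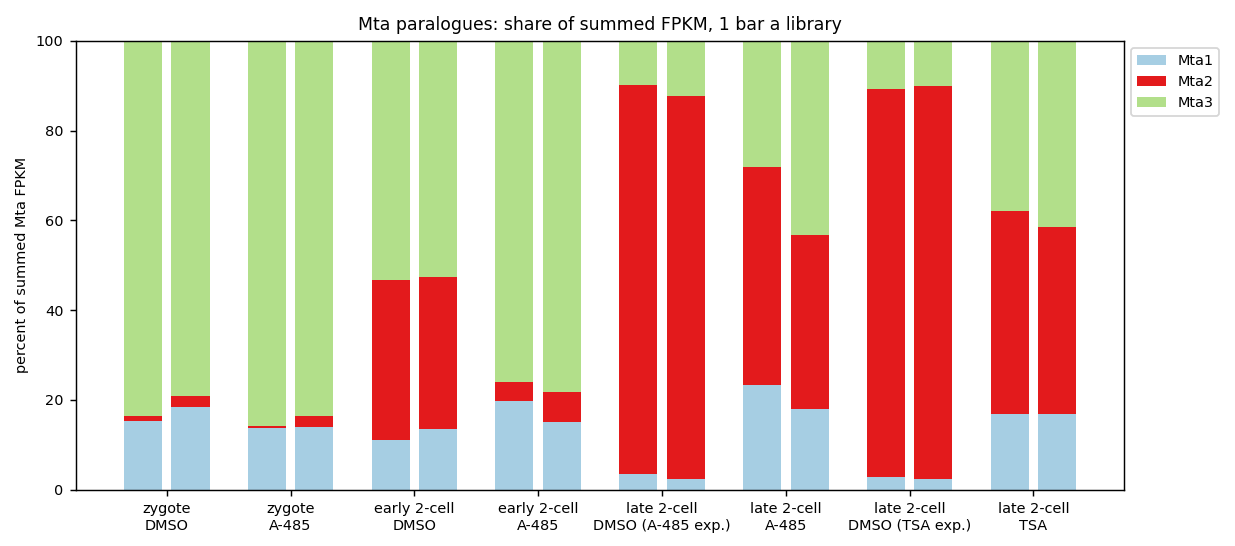
Percent of the summed FPKM of Mta1, Mta2 and Mta3 that each paralogue took, 1 stacked bar a library, from zygote to late 2-cell. Mta2 (red) fills 85.2% to 87.6% of the late 2-cell DMSO bars and 38.7% to 48.6% of those after A-485 or TSA.

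The makeup of the Mta paralogues followed from these values. Mta3 made up 81.4% ± 3.18 of the summed Mta FPKM in DMSO zygotes, and Mta2 1.69% ± 1.00. By the early 2-cell stage Mta2 held 34.6% ± 1.28 with DMSO and 5.59% ± 1.70 after A-485. In late 2-cell embryos Mta2 held 85.9% ± 1.01 with DMSO and 43.7% ± 7.02 after A-485, and in the TSA experiment 87.1% ± 0.68 and 43.5% ± 2.55. The Mta3 share went the other way, from 11.1% ± 1.80 with DMSO to 35.7% ± 10.8 after A-485 and from 10.4% ± 0.43 to 39.7% ± 2.43 with TSA, although its own level fell. The libraries of treated and control groups did not overlap in the Mta2 share at the 2-cell stages. With 2 libraries against 2 no exact permutation test of a share can pass the threshold, so none was made. Summed over all 10 subunits, late 2-cell libraries held 451 and 490 FPKM after A-485 against 740 and 713, and 472 and 484 after TSA against 653 and 660. Most of each difference was Mta2 alone, with a mean of 19.5 FPKM after A-485 against 214 and of 17.4 after TSA against 183. The sums therefore do not stand for the other subunits.

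Other subunits that the list leaves out, namely Hdac1, Hdac2, Rbbp7, Cdk2ap1, Chd5, Mbd3l1 and Mbd3l2, were placed beside these. Of the 6 tested, none was called after A-485 in zygotes by edgeR (0 at an unadjusted p under 0.05), 2 were lower in early 2-cell embryos (beside 7.90% of all genes), 4 lower in late 2-cell embryos (16.8%), and after TSA 2 were lower (13.9%) and 1 higher (13.8%). Hdac1, a catalytic subunit, was lower in early 2-cell embryos by 3.07 on the log2 scale (5.46 against 30.7 mean FPKM), in late 2-cell embryos after A-485 by 3.17 (18.4 against 94.0 mean FPKM), and after TSA by 1.10 (67.5 against 98.9 mean FPKM). Cdk2ap1, a small subunit of the complex, was lower by 2.18, 4.14 and 3.01 in the same comparisons. Rbbp7, the paralogue of Rbbp4, fell by 1.48 after A-485 and by 0.72 after TSA in late 2-cell embryos. Hdac2 fell by 0.57 after A-485 and rose by 0.56 after TSA. Mbd3l2 fell by 1.04 and 0.96, and Chd5 was called higher after TSA at 1.42 with mean levels of 1.12 against 0.33 FPKM. With TMM scaling, 4 of these differed between TSA and A-485: Hdac1 by 2.17, Cdk2ap1 by 1.24, Hdac2 by 1.23 and Rbbp7 by 0.87, each higher with TSA, beside 12.7% of all genes. Rbbp4 made up 10.4% ± 1.95 of the summed Rbbp4 and Rbbp7 FPKM in late 2-cell DMSO embryos and 9.43% ± 2.28 after A-485, and 18.4% ± 0.48 and 10.3% ± 0.85 in the TSA experiment.

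ATAC-seq, which marks DNA open to a transposase, was deposited as 4 peak lists, each pooled over the 2 replicates of a group, for early 2-cell embryos and, before them, late 1-cell embryos, with DMSO or A-485 as above. With 1 list a group there is no replicate check, and in the order DMSO, A-485 the lists held 10214 and 7094 peaks at the late 1-cell stage and 27693 and 13712 at the early 2-cell stage. A peak within 1 kb of a start was listed for 6 and 5 of the 10 subunits in late 1-cell embryos, beside 38.3% and 37.1% of expressed genes, and for 6 and 5 in early 2-cell embryos, beside 48.5% and 57.8%.

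**Figure D4:**
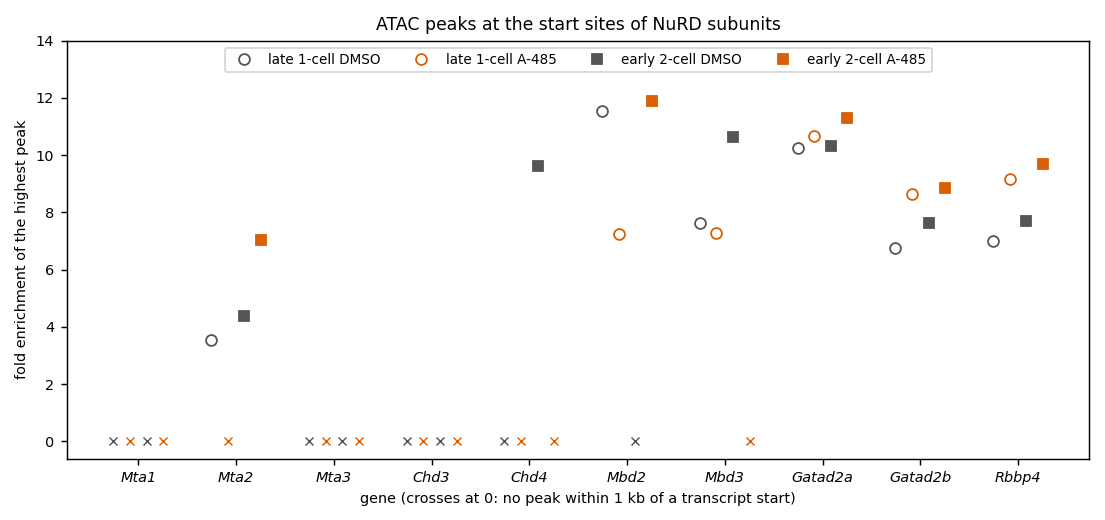
Fold enrichment over local background (y axis) of the highest ATAC peak within 1 kb of a transcript start of each NuRD subunit, for the 4 pooled peak lists; crosses at 0 mark genes with no listed peak. Mta1, Mta3 and Chd3 have none, and Gatad2a, Gatad2b and Rbbp4 have one in every list.

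The peak over the Mta2 start was at chr19:8941653-8942147 in late 1-cell DMSO embryos, with a fold enrichment of 3.53, and no peak was listed there after A-485. In early 2-cell embryos it was listed in both groups, at chr19:8941657-8942442 with an enrichment of 4.37 in DMSO and at chr19:8941535-8942442 with 7.03 after A-485. The −log10 q values listed for these peaks were close, at 21.84 and 22.05, and the difference in enrichment was not tested. The interval covers the annotated start of Mta2 (GENCODE, chr19:8941875-8952303, plus strand) and the CCGGAAG matches printed above, which lie upstream of the RefSeq start but downstream of the GENCODE one, and the start of another gene, Gm10353, lies within 1 kb. At this stage Mta2 RNA was 10.7-fold lower after A-485, and a peak over its start was listed with and without the drug. The early 2-cell DMSO list alone held a further peak within 10000 bases of Mta2, at chr19:8957497-8957854, beyond the end of the gene, with an enrichment of 8.91. Whether another gene starts nearer to this peak was not examined. Peaks over 1 kb from a start were likewise listed in early 2-cell DMSO and not after A-485 for Mta3 (5), Gatad2a (5), Gatad2b (2), Rbbp4 (2) and Chd3 (1). Mta1 (4 and 2) and Chd4 (3 and 2) had such peaks in both lists, and Mbd2 (1) after A-485 alone. The DMSO list is the longer of the pair, and the part of list length in these differences was not tested.

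The Rbbp4 start (chr4:129307100-129335370, minus strand), which is shared with Zbtb8os within 1 kb, had enrichments of 6.99 (DMSO) and 9.17 (A-485) in late 1-cell embryos and of 7.72 and 9.71 at the next stage. Those of Gatad2a were 10.2, 10.7, 10.3 and 11.3 in the same order, and those of Gatad2b 6.76, 8.64, 7.63 and 8.85. Mbd2 was listed in 3 groups (11.55, 7.23 and 11.9) but not in early 2-cell DMSO, Mbd3 in 3 (7.64, 7.30 and 10.6) but not in early 2-cell A-485, and Chd4 in early 2-cell DMSO alone (9.62). The Chd4 peak, at chr6:125119260-125119708, lies inside the gene (chr6:125095981-125130591, plus strand), near the start of an internal transcript and not at the first one. Mta1 and Mta3, with no listed peak within 1 kb of a start, had RNA in every group. Peaks just outside that window were listed, for Mta1 at 1167 bases in late 1-cell DMSO and for Mta3 at 1177 bases in early 2-cell DMSO.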

How the data were processed

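The RNA-seq files were made by the authors as 1 RSEM table a library: reads were trimmed with Trimmomatic 0.39, mapped to GRCm38 with STAR 2.7.8a and quantified with RSEM 1.3.1, per the submitters' processing notes (which also name DESeq2 1.32.0); the annotation release was not given in the sources used here. The authors deposited expected counts, FPKM and TPM; reads that fit several genes are divided between them, which for the 10 subunits moved no more than a trace of the counts. The deposited ATAC peak lists give for each peak a fold enrichment over local background (a ratio), a −log10 q value and a score, pooled over replicates with the ENCODE pipeline. Gene IDs were matched to symbols on the Ensembl base ID (55144 of 55385).

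Expected counts were rounded and tested with edgeR 4.0.16 (R 4.3.3) by the quasi-likelihood test with TMM, over genes with at least 10 counts in all, with Benjamini-Hochberg adjustment over all genes tested and only the libraries of a comparison in its fit. Differences between effects were interaction contrasts over 8 libraries. Groups came from the labels; the late 2-cell DMSO pairs were told apart by their titles. The labels do not say that the 2 libraries of a group came from separate fertilisations, so p-values measure the spread between these libraries, which may be technical. No pair of libraries was a copy of the other: chi-square per degree of freedom was 9.44 to 19.64 within groups. Same-numbered libraries deviated together with correlations of -0.03 to 0.11, so the numbers were not taken as pairs. The tests were first tried on simulated counts with known changes. The effective length of Mta2 in the tables ran from 865 to 2555 bases between libraries, which enters its FPKM but not its counts.

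The subunits, the other gene lists and the tests were chosen with earlier results of these data known. All 10 subunits are reported in every comparison, every gene of the list of other NuRD subunits is named, and of each further list the gene called most often, except for 1 list that is not reported here. Alternatives were DESeq2 1.42.0, total-count and mitochondrial scaling, no count filter, a fit over 16 libraries, a replicate block, adjusted p alone, and leaving out each library. The H3K27ac CUT&RUN files were not used here, since they hold no RNA level of these genes.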

Additional observations from a re-analysis of the deposited data

Results flagged for a closer look

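A difference between stages in the effect of A-485, by a test of the difference itself (interaction term, edgeR's quasi-likelihood test with Benjamini-Hochberg adjustment over all genes tested), singled out 6 values. The effect on Mta2 was lower by 3.14 on the log2 scale in early 2-cell embryos than in zygotes, that is -3.14 ± 0.48 SE, where the zygote level was 0.30 to 2.30 FPKM. Between early and late 2-cell embryos the effect moved by -0.83 for Mta2, -0.96 for Mta3, -0.61 for Gatad2b and -0.90 for Rbbp4, and by 1.10 for Mbd2. The last was 0.04 with mitochondrial scaling, and those of Mta2 and Rbbp4 were not past the threshold without 1 or more single libraries. No group had enough libraries for a test of single outlying values.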

How the results depend on the processing

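Of the 110 values (10 subunits in 11 comparisons), 38 had an adjusted p under 0.05, and 3 of these changed sign: with mitochondrial scaling Mbd2 (-0.68) and Gatad2a (-0.91) between early 2-cell and zygote DMSO embryos, and with total-count scaling Gatad2a (0.028) between late and early 2-cell embryos after A-485. Of the 72 others, 39 changed sign under some alternative, 29 of them under a scaling. Of 19 calls, 12 held under every alternative, among them those of Mta2 against DMSO (-3.67 to -3.11 in early 2-cell, -5.31 to -4.03 after A-485 and -4.20 to -3.66 after TSA in late 2-cell embryos). Mitochondrial scaling shifted the median of all genes by -0.98 for late 2-cell A-485, -0.18 for TSA, -1.33 for early 2-cell against zygote and -0.90 for late against early 2-cell after A-485, by 0.27 in zygotes, and by -0.33, -1.04 and 0.68 for the interactions; total counts shifted it by 0.19, 0.36 and 0.29 for late 2-cell A-485, TSA and late against early 2-cell after A-485 and by 0.13 for the late against early interaction.

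The number of subunits called moved as follows, with the number of all genes called in the same direction in brackets where given. With mitochondrial scaling it was 0 higher and 7 lower for late 2-cell A-485 (1177 and 6874 of 22822) and 4 lower for TSA (3777 of 23429). It was 7 lower for early 2-cell against zygote (8196 of 20106) and 6 lower for late against early 2-cell after A-485 (6178 of 22854). For the early interaction it was 2 lower (1775 of 23002) and for the late one 0 higher and 8 lower (1118 and 6287 of 25141). For TSA minus A-485 it was 6 higher (6639 of 26554). With total counts it was 1 higher and 1 lower for TSA (4108 and 2384 of 23429) and 1 lower for early 2-cell against zygote (3267 of 20106). With adjusted p alone it was 5 lower for late 2-cell A-485 (4664 of 22822), and 1 higher and 6 lower for TSA (5087 and 5019 of 23429). It was 3 higher and 4 lower for early 2-cell against zygote (4563 and 4707 of 20106). For late against early 2-cell DMSO it was 2 higher and 4 lower (4181 and 3173 of 20326). All 16 libraries in one fit gave 1 higher for TSA (2775), and the TSA experiment's DMSO libraries 2 higher for late against early 2-cell (3847). Leaving out each library in turn gave 0 to 1 higher for TSA, 0 to 1 lower for early 2-cell against zygote, 1 to 2 higher and 0 to 1 lower for late against early 2-cell DMSO, 1 to 2 lower for the early interaction, 0 to 1 higher and 2 to 7 lower for the late one, and 0 to 1 higher for TSA minus A-485. Shares of expected counts put Mta2 at 36.2% of Mta in early 2-cell DMSO, 87.9% and 89.97% in the late 2-cell DMSO groups, and 33.5% after A-485. The cause of these shifts was not tested.

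Over all genes, calls in zygotes went from 13 to 28 with mitochondrial scaling, 39 without a count filter, 26 in the fit over 16 libraries and 39 with a replicate block, and to 20 to 56 on leaving out a library (56 without zygote A-485 replicate 2), and those between the DMSO groups of both experiments from 273 to 414, 453, 445 with the block, 488 with adjusted p alone, and 512 and 489 without DMSO replicate 1 or 2 of the A-485 experiment. Mitochondrial scaling took early 2-cell against zygote from 5259 to 9466, late against early 2-cell after A-485 from 4549 to 7684, and TSA minus A-485 from 4598 to 7051; adjusted p alone took TSA from 6484 to 10106 and the first 2 of these to 9270 and 7310. The split for late 2-cell A-485 went from 3824 lower and 2406 higher to 6874 and 1177 with mitochondrial scaling, and that for TSA from 3247 and 3237 to 2384 and 4108 with total counts. The replicate block gave Mta2 as -3.39 in early 2-cell embryos and -4.35 and -4.02 in late 2-cell embryos after A-485 and TSA, and it changed no other count of called subunits. A comparison of protein sequences was not run.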

Other observations

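Genes outside the subunits whose level followed that of Mta2 most closely were Mcl1, Syap1, Dr1, Zc3hc1 and Btbd18, with Pearson's r from 0.995 to 0.997 over the 8 group means of log2(FPKM + 1), among 9428 genes compared; the groups share stages and treatments, so r is a description. Btbd18 was at a mean of 0.53 FPKM in zygotes, 13.9 in early 2-cell embryos and 207 in late 2-cell embryos with DMSO, and at 12.8 in late 2-cell embryos after A-485.

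Complexes near NuRD in make-up were counted in the same way, after A-485 and then TSA in late 2-cell embryos. Of 17 proteins known to bind NuRD, 6 and 5 were called lower and 2 and 2 higher. Of 13 Sin3 subunits, 5 and 4 were lower and 0 and 1 higher, and of 6 CoREST subunits, 4 and 3 were lower and none higher (0 by edgeR in both). Of 7 Chd genes outside NuRD, 2 and 2 were lower and none higher. Over all genes 16.8% and 13.9% were called lower and 10.5% and 13.8% higher. After A-485 no gene of these 4 lists was called in zygotes, with 4 at an unadjusted p under 0.05, beside 1073 of 18258 genes. In early 2-cell embryos 2, 1, 1 and 0 were called lower, beside 7.90% of all genes. The gene called most often in each list was Bend3, a DNA-binding partner of NuRD (log2 fold changes -2.96 and -2.63), Brms1 of Sin3 (-2.95 and -1.40), Rcor2 of CoREST (-3.07 and -1.03) and the remodeller Chd1 (-1.88 and -1.86).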
